A study of Mus musculus with 24 samples.

Results

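The 9 genes described here encode core parts of the transforming growth factor beta (TGF-beta) pathway: the ligand Tgfb1, the receptors Tgfbr1 and Tgfbr2, the signal transducers Smad2, Smad3 and Smad4, and the inhibitors Smad7, Ski and Skil. They were listed by gene name, and all 9 were found among the 47729 gene IDs in the files. Their RNA was measured in microglia, the resident macrophages of the retina, sorted from mouse eyes with 1 sequencing library per retina. The first group was DBA/2J mice of 12 months (genotype Gpnmb-/- Tyrp1b-/-), with 10 retinas of 5 animals, and the labels graded each of these retinas as mild, moderate or severe disease. A second group was DBA/2J mice of 6 months with the same genotype, labelled early disease, with 5 retinas of 5 animals. The control group was DBA/2J Gpnmb+ mice of 12 months (Gpnmb+/+ Tyrp1b-/-), with 9 retinas of 5 animals, so that the Tyrp1 mutation was shared by all groups. DBA/2J is an inbred strain in which iris disease, raised eye pressure and loss of retinal ganglion cells develop with age, and a working Gpnmb gene spares most of these eyes. Microglia were sorted as CD11b+, Ly6c- and Fcrls+ cells, and 100 to 600 cells were collected per retina.

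TGF-beta is made as a latent complex that is held and activated at the cell surface. Active ligand binds Tgfbr2, which recruits and phosphorylates Tgfbr1, and Tgfbr1 then phosphorylates Smad2 and Smad3. These join Smad4 and enter the nucleus to regulate genes, while Smad7 acts on the receptor and Ski and Skil (also called SnoN) act on the Smad complex to restrain the signal. In the mouse, microglia need this pathway to take on and keep their adult gene programme, and loss of Tgfbr2 in retinal microglia is followed by a reactive state.

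The 12-month DBA/2J libraries held 1706745 to 20081047 counts. Those of 6-month DBA/2J retinas held 12043862 to 17992997 counts, and Gpnmb+ libraries 977873 to 14845259 counts. All 12 microglia markers checked were detected in each group. Gpnmb had 0 reads in both DBA/2J groups and reads in 1 of 9 Gpnmb+ retinas (459 counts), so the other 8 control retinas gave no check of the genotype label. Gpnmb+ animal 2 stood apart, with 977873 counts and 3466 detected genes in its right retina and with 9874 CPM (read counts scaled to a common library total) for 14 rod markers summed, against 456 to 1590 CPM in the other Gpnmb+ animals. Where the value of a member in Gpnmb+ animal 2 lay far from those of the other controls, results are also given without it. Gpnmb+ animal 1 was low too, with 9512 and 9331 detected genes in its eyes. Its 12 microglia markers summed to 24842 CPM, against 22388 CPM in animal 2 and 32054 to 37183 CPM in the other Gpnmb+ animals. In these bulk samples, less RNA per cell and a different mix of cells cannot be told apart.

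On the length-scaled TPM scale (relative transcript abundance, as deposited and averaged over the eyes of an animal), the receptors were the most abundant of the 9. Tgfbr1 had a mean level of 133 ± 35.8 TPM and Tgfbr2 of 103 ± 41.9 TPM (SD, n = 15 animals). Skil followed with 88.0 ± 40.2 TPM and Ski with 42.8 ± 13.7 TPM. Smad3 had 30.9 ± 17.2, Smad2 28.1 ± 8.57, Tgfb1 15.2 ± 6.93, Smad7 12.8 ± 6.13 and Smad4 10.5 ± 8.24 TPM. The clear steps in this order held in nearly all animals: Skil was above Ski in 14 of 15, Ski above Smad3 in 13 of 15, and Smad2 above Tgfb1 in 13 of 15. The other neighbours lay within each other's spread, with the first of the pair higher in 10 of 15 animals for Tgfbr1 and Tgfbr2, 9 for Tgfbr2 and Skil, 8 for Smad3 and Smad2, 9 for Tgfb1 and Smad7, and 10 for Smad7 and Smad4.

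**Figure D1:**
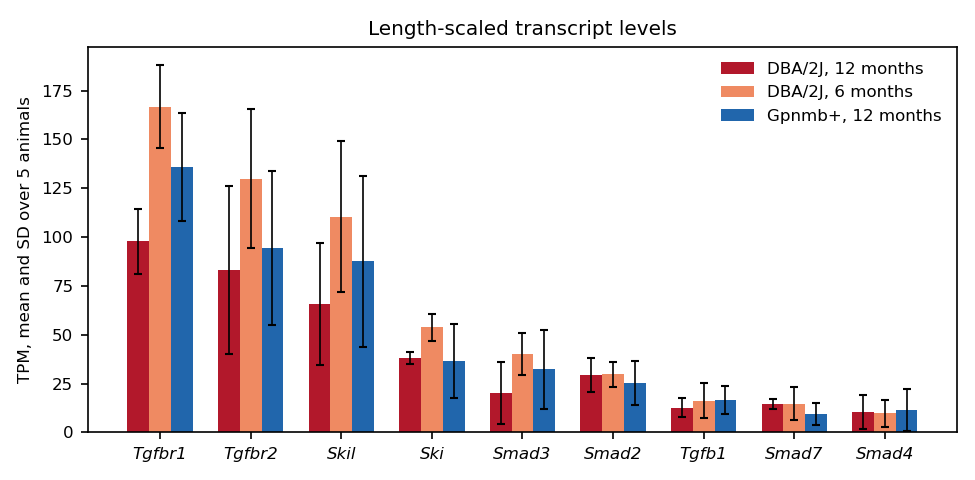
Mean TPM of the 9 genes (bars, error bars SD over 5 animals) in 12-month DBA/2J, 6-month DBA/2J and 12-month Gpnmb+ microglia, ordered by the mean over all animals. Tgfbr1, Tgfbr2 and Skil had the highest bars in each group, and their SDs overlapped.

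Tgfbr1, the type I receptor kinase (chr4:47353222-47414931, plus strand, GRCm38), had the smallest unadjusted p of the 9 between 12 and 6 months. Its level was 423, 313, 367, 450 and 369 CPM in 12-month DBA/2J animals 1 to 5. It was 495, 573, 612, 765 and 493 CPM in 6-month DBA/2J animals and 531, 522, 547, 439 and 448 CPM in Gpnmb+ animals. All 5 older DBA/2J animals were below all 5 younger ones, and 4 of 5 were below every Gpnmb+ animal. The group means were 384 ± 53.7, 588 ± 111 and 497 ± 50.2 CPM (SD, n = 5 each), in the same order. At 12 against 6 months the log2 fold change was -0.61 ± 0.18 (SE; 95% interval -0.99 to -0.23; unadjusted p = 0.0033, adjusted p = 0.72 over all genes by edgeR). The exact two-sided permutation test over animals gave p = 0.00794, the smallest that 5 against 5 allows. Exact permutation p values, here and below, were computed for the 9 members alone and not adjusted for the number of tests. DESeq2 called the same difference, with a log2 fold change of -0.61 and an adjusted p of 0.0228. Over the alternative settings that gave an adjusted p, it was 0.0228 to above 0.99. Against Gpnmb+ the log2 fold change was -0.37 ± 0.18 (unadjusted p = 0.0542, adjusted p = 0.976 by edgeR; exact permutation p = 0.0238, and 0.0476 without Gpnmb+ animal 2). It was -0.35 without Gpnmb+ animal 2, and -0.20 (p = 0.288) without the 5 Gpnmb+ retinas that had under 10000 detected genes. That setting removed Gpnmb+ animals 1 and 2 and the right eye of animal 3. Over the 23 alternatives the value ran from -0.46 to -0.18, the last with the retina of larger total of each animal (p = 0.471 by edgeR).

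Tgfbr2, the ligand-binding type II receptor (chr9:116084293-116175360, minus strand), had 283, 346, 389, 104 and 457 CPM in 12-month DBA/2J animals. The 6-month animals had 509, 506, 348, 318 and 310 CPM and the Gpnmb+ animals 340, 243, 377, 255 and 493 CPM. The groups overlapped, and the low value was that of 12-month DBA/2J animal 4, both of whose eyes were graded mild. The log2 fold change was -0.33 ± 0.32 at 12 against 6 months (p = 0.313) and -0.11 ± 0.32 against Gpnmb+ (p = 0.729). Without animal 4 these values were -0.11 and 0.11, and without Gpnmb+ animal 5 the value against Gpnmb+ was 0.06. Tgfb1, the main TGF-beta ligand of macrophages (chr7:25687002-25705077, plus strand), had 33.3, 9.95, 14.4, 14.4 and 12.6 CPM in 12-month DBA/2J animals. It had 26.5, 7.80, 12.6, 24.7 and 15.6 CPM in 6-month DBA/2J and 27.7, 26.4, 20.2, 10.8 and 20.2 CPM in Gpnmb+ animals. Apart from the high value of animal 1, the 12-month DBA/2J values were below 4 of the 5 Gpnmb+ animals, and the log2 fold change was -0.32 ± 0.65 against Gpnmb+ (p = 0.631).

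Smad2 and Smad3 are the receptor-activated Smads of the pathway. Smad2 had 60.9, 62.1, 48.5, 38.2 and 35.8 CPM in 12-month DBA/2J animals, against 31.8, 4.00, 29.96, 28.8 and 35.8 CPM in Gpnmb+ animals. Of the 5 12-month DBA/2J animals, 4 were above every Gpnmb+ animal, and the fifth, at 35.77 CPM, lay just under the highest Gpnmb+ value of 35.83 CPM. The log2 fold change was +0.91 ± 0.52 (unadjusted p = 0.0984 by edgeR), and the exact permutation test gave an unadjusted p of 0.0159. The value of 4.00 CPM came from 20 counts in both eyes of Gpnmb+ animal 2, and without that animal the log2 fold change was 0.64 (p = 0.102; exact permutation p = 0.0317). The value depended on the scale and the retinas used, at 0.28 (p = 0.543) on log2(TPM + 1) by limma and 1.66 (p = 0.0141 by edgeR) with the retina of larger total of each animal. In 6-month DBA/2J animals Smad2 was at 46.0, 55.2, 34.6, 57.6 and 25.0 CPM, with the log2 fold change of 12 against 6 months at 0.17 ± 0.52.

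Smad3 (chr9:63646767-63757994, minus strand) had 11.3, 90.6, 44.6, 38.6 and 103 CPM in 12-month DBA/2J animals. It had 133, 106, 41.7, 132 and 138 CPM in 6-month DBA/2J and 46.3, 93.1, 96.1, 119 and 39.4 CPM in Gpnmb+ animals. Of the 5 younger animals, 4 were above every older one, and animal 3 was below the median of the older group. The log2 fold change was -0.93 ± 0.51 at 12 against 6 months (unadjusted p = 0.0867, exact permutation p = 0.0714), with an unadjusted p of 0.0375 without 12-month DBA/2J animal 5, 0.0412 without 6-month DBA/2J animal 3 and 0.0437 on log2(TPM + 1) by limma. It was -0.45 ± 0.51 against Gpnmb+ (p = 0.39), and 0.43 with retinas and a random animal effect. The 93.1 CPM of Gpnmb+ animal 2 came from 465 counts in its right retina, with 0 counts in the left. Without that animal the log2 fold change against Gpnmb+ was -0.38 (p = 0.483 by edgeR). It was -0.02 (p = 0.979 by edgeR) without the 2 retinas under 20% of the median library total. These were the left retina of 12-month DBA/2J animal 4 and the right retina of Gpnmb+ animal 2. Smad4, the shared partner of Smad2 and Smad3, had the lowest mean TPM over all animals and the largest coefficient of variation of CPM in each group. It had 19.1, 15.1, 44.4, 1.22 and 24.5 CPM in 12-month DBA/2J, 6.05, 1.83, 26.1, 22.3 and 21.5 CPM in 6-month DBA/2J and 0.636, 3.00, 33.5, 48.2 and 25.5 CPM in Gpnmb+ animals. Each group held animals near 0 and animals above 20 CPM, and the 95% interval of the log2 fold change against Gpnmb+ ran from -2.26 to 2.08. Smad4 had 0 counts in 1 retina of 12-month DBA/2J animal 4, where 3 counts correspond to 0.484 CPM, and in the right retina of Gpnmb+ animal 2, where they correspond to 3.07 CPM.

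Of the inhibitors, Smad7, which blocks Tgfbr1 and is itself induced by the pathway, had 42.3, 39.4, 49.5, 70.4 and 41.6 CPM in 12-month DBA/2J animals. It had 38.0, 22.03, 70.0, 18.4 and 43.4 CPM in 6-month DBA/2J and 27.1, 6.01, 33.3, 44.8 and 34.2 CPM in Gpnmb+ animals. All 5 12-month DBA/2J animals were above the Gpnmb+ median but only 2 above every Gpnmb+ animal. The log2 fold change was 0.74 ± 0.54 (unadjusted p = 0.186 by edgeR, exact permutation p = 0.0317), and 0.48 (p = 0.277, exact permutation p = 0.0635) without Gpnmb+ animal 2. It was 0.33 (p = 0.469 by edgeR) without the 5 Gpnmb+ retinas that had under 10000 detected genes, which removed Gpnmb+ animals 1 and 2. Ski (chr4:155154075-155222592, minus strand), a nuclear co-repressor of Smads, varied little outside the controls, at 172, 134, 135, 176 and 131 CPM in 12-month DBA/2J and 180, 158, 171, 153 and 160 CPM in 6-month DBA/2J animals. In Gpnmb+ animals it was at 115, 54.9, 180, 147 and 131 CPM. Its log2 fold change was 0.25 ± 0.28 against Gpnmb+, 0.06 without Gpnmb+ animal 2, and -0.14 ± 0.28 at 12 against 6 months.

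Skil (chr3:31095058-31122577, plus strand), the co-repressor closest to Ski, was the other member with an unadjusted p under 0.05. It had 142, 245, 299, 155 and 206 CPM in 12-month DBA/2J animals, against 237, 589, 444, 329 and 233 CPM in Gpnmb+ animals. All 5 12-month DBA/2J animals were below the Gpnmb+ median and 3 were below every Gpnmb+ animal. The means were 210 ± 64.8 and 367 ± 151 CPM (SD, n = 5 each), with a log2 fold change of -0.81 ± 0.29 (95% interval -1.41 to -0.20; unadjusted p = 0.012, adjusted p = 0.628 by edgeR; exact permutation p = 0.0556). The highest control value was that of Gpnmb+ animal 2, and without it the log2 fold change was -0.57 (p = 0.0466, exact permutation p = 0.111). In 6-month DBA/2J animals Skil was at 368, 243, 388, 401 and 307 CPM. At 12 against 6 months its log2 fold change was -0.70 ± 0.29 (unadjusted p = 0.0252, adjusted p above 0.99 by edgeR; exact permutation p = 0.0238). Leaving out 12-month DBA/2J animal 1 or 4 or 6-month DBA/2J animal 1, 3 or 4 moved that unadjusted p to between 0.0523 and 0.0674. The 6-month and Gpnmb+ values overlapped throughout, with a log2 fold change of -0.10 ± 0.29.

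**Figure D2:**
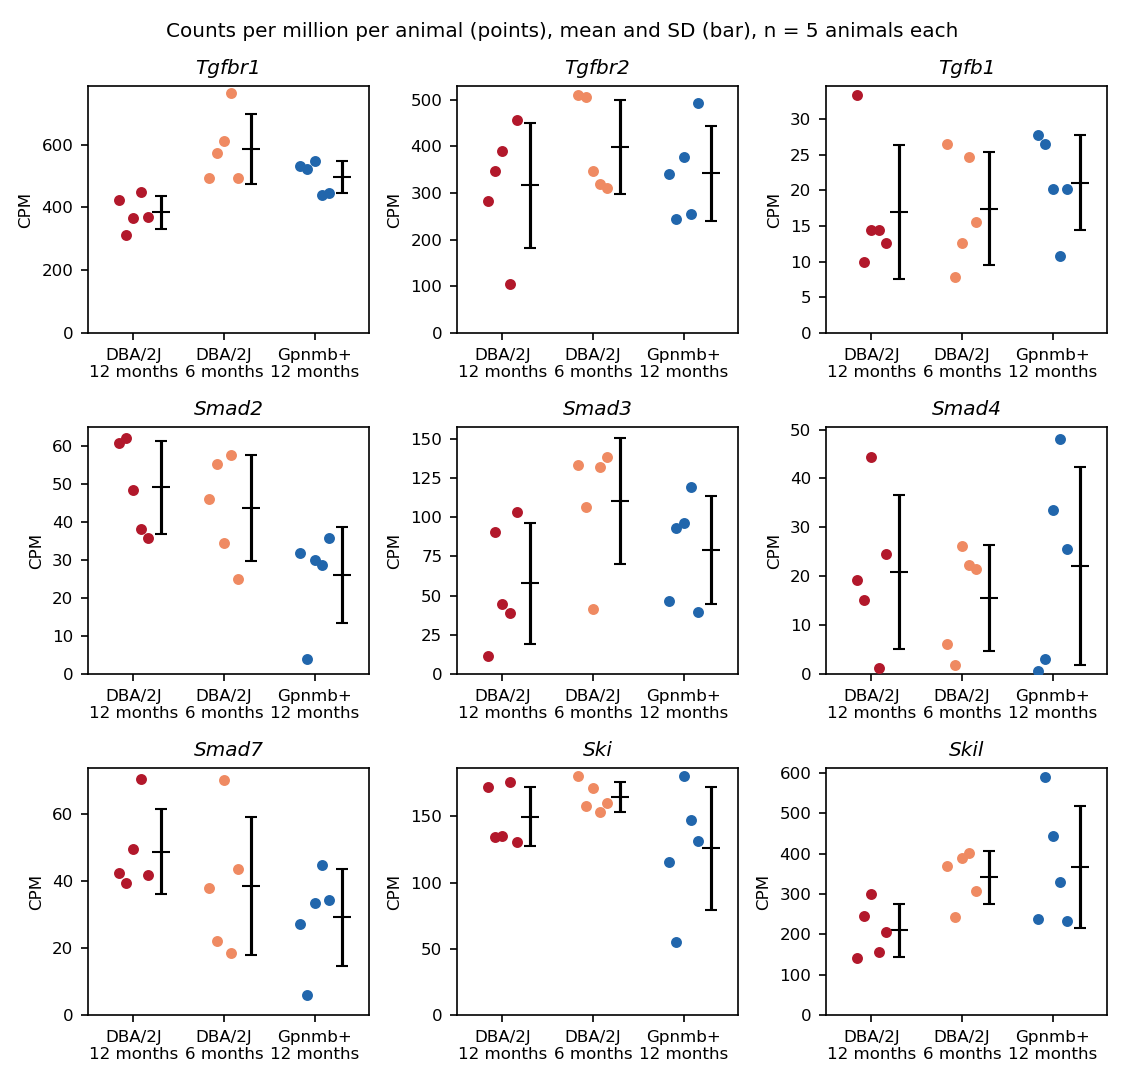
CPM of each gene in each animal (points; animals 1 to 5 from left to right), with the mean and SD of 5 animals beside them. Tgfbr1 in 12-month DBA/2J animals, at 313 to 450 CPM, lay below all 6-month animals, at 493 to 765 CPM, and Smad2, Smad7 and Ski each had their lowest Gpnmb+ value in animal 2.

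All 9 members passed the filter on low counts. With edgeR, 0 members passed an adjusted p of 0.05 for 12-month DBA/2J against Gpnmb+, nor did any gene (0.0% of 12977), while 675 genes had an unadjusted p under 0.05 and DESeq2 called 105 genes and 0 members. One member, Skil, was lower at an unadjusted p under 0.05, where 2.45% of all genes were, and 0 were higher, where 2.75% were. The groups separated fully for 0 members, against 0.832% of all genes for higher and 0.285% for lower. For 12-month against 6-month DBA/2J, edgeR again called 0 members and 0.0% of genes, with 474 genes at an unadjusted p under 0.05, and DESeq2 called 60 genes, 1 of them Tgfbr1. Tgfbr1 and Skil were lower at an unadjusted p under 0.05, where 1.55% of all genes were, and 0 members were higher, where 2.1% were. The groups separated fully for Tgfbr1 alone of the 9, lower in all older animals, as for 1.03% of genes; full separation upwards occurred for 0 members and 1.43% of genes. For 6-month DBA/2J against Gpnmb+, edgeR called 0 members and 0.0% of genes, 489 genes and 0 members had an unadjusted p under 0.05, and DESeq2 called 53 genes and 0 members. These comparisons share animals, so that their fold changes are not independent of each other.

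**Figure D3:**
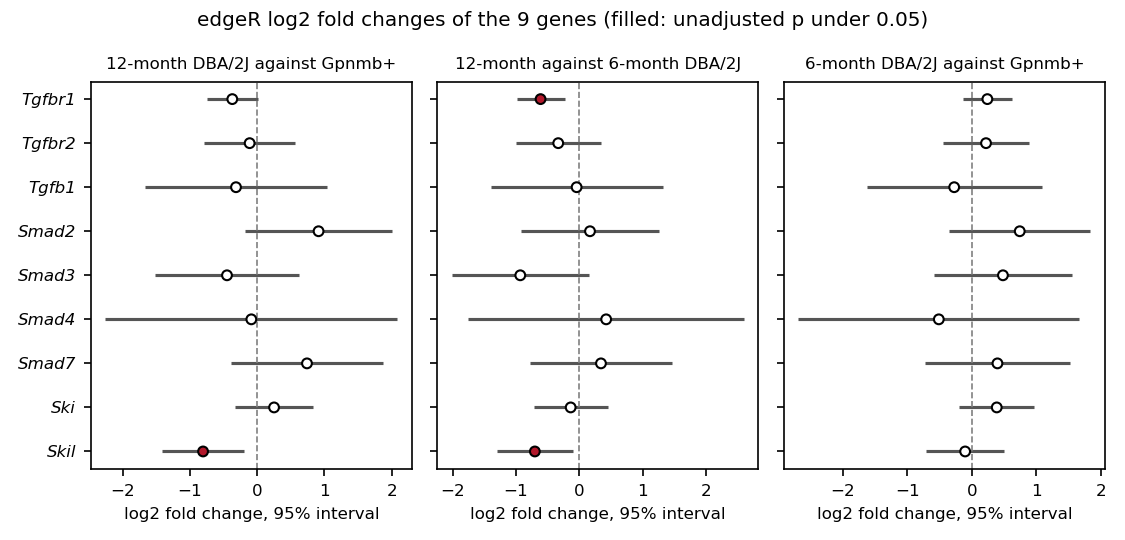
edgeR log2 fold changes (points) with 95% intervals (lines) for the 9 genes in each comparison of groups; filled points have an unadjusted p under 0.05. Skil in the first panel and Tgfbr1 and Skil in the second have intervals below 0, and the interval of Smad4 spans more than 4 log2 units in each panel.

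Other measures moved with the same groups, and their part in these differences was not tested. Markers of monocytes and recruited macrophages summed to 481 to 1378 CPM in 12-month DBA/2J (5 of 8 detected; Ly6c2, Plac8 and Chil3 at 0), to 47.2 to 332 CPM in 6-month DBA/2J (5 of 8; Ly6c2, S100a4 and Chil3 at 0) and to 116 to 519 CPM in Gpnmb+ animals (7 of 8; Chil3 at 0). Most of each sum was Lyz2, a lysozyme gene of myeloid cells, at 459 to 1355 CPM in 12-month DBA/2J, 40.8 to 321 CPM in 6-month DBA/2J and 111 to 487 CPM in Gpnmb+ animals. Markers of border-associated macrophages summed to 12.1 to 194 CPM in 12-month DBA/2J (7 of 8 detected), 0.153 to 90.4 CPM in 6-month DBA/2J (6 of 8) and 0.0909 to 120 CPM in Gpnmb+ animals (7 of 8), with Cd209f at 0 in each group and Lyve1 in the 6-month group. All 14 rod markers were detected in each group, and they summed to 524 to 2944 CPM (median 2181) in 12-month DBA/2J. The sums were 209 to 2302 CPM (median 499) in 6-month DBA/2J and 456 to 9874 CPM (median 799) in Gpnmb+ animals. Mitochondrial transcripts made up 1.43 to 3.34%, 0.641 to 1.49% and 1.21 to 4.71% of the counts, in the same order of groups. The retinas had 10693 to 15037, 13809 to 16706 and 3466 to 14460 detected genes, in that order too.

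The graded eyes placed the low Tgfbr1 values mainly among moderate retinas. Tgfbr1 was at 345, 607 and 694 CPM in the 3 mild retinas, at 224, 259, 293 and 327 CPM in the 4 moderate retinas and at 200, 447 and 447 CPM in the 3 severe retinas, against 216 to 902 CPM (median 461) in Gpnmb+ retinas. Every moderate retina was below every mild one, while the severe retinas spanned the moderate range. The retinas of a grade were not independent: they came from 2 animals for mild, 3 for moderate and 2 for severe. Summed by animal and grade (TMM-scaled), Tgfbr1 was at 453 and 569 CPM for mild and 333, 310 and 213 CPM for moderate. Animal 5 was in both of these grades. The severe sums were 487 and 368 CPM. In the 2 animals whose eyes differed in grade, the moderate eye had less Tgfbr1: 293 CPM against 447 CPM in the severe eye of animal 1, and 224 CPM against 607 CPM in the mild eye of animal 5. Eyes of like grade differed too, at 345 and 694 CPM in animal 4 (mild) and 200 and 447 CPM in animal 3 (severe). The eyes of Gpnmb+ animal 1 had 604 and 216 CPM. In the moderate eye of DBA/2J animal 1, every other member except Smad3 was also lower than in its severe eye. With counts summed by animal and grade, the log2 fold change against Gpnmb+ was 0.07 ± 0.29 for mild, -0.78 ± 0.26 for moderate (unadjusted p = 0.00738, adjusted p = 0.579 by edgeR) and -0.19 ± 0.29 for severe. The unadjusted p of the moderate comparison stayed under 0.05 in all 14 alternatives run, at 0.0032 to 0.0416. None of these alternatives treated the eyes of 1 animal as related. Animals 1 and 5 entered with 2 sums each, taken as independent, except where 1 of them was left out.

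Skil was at 77.9, 163 and 214 CPM in mild, 63.4, 212, 223 and 225 CPM in moderate and 170, 254 and 372 CPM in severe retinas, against 41.9 to 777 CPM (median 292) in Gpnmb+ retinas. All mild and moderate retinas were below the Gpnmb+ median and 1 severe retina was above it. Its log2 fold change against Gpnmb+ was -0.9999 ± 0.47 for mild (unadjusted p = 0.0468), -1.02 ± 0.40 for moderate (unadjusted p = 0.02) and -0.56 ± 0.46 for severe retinas, with adjusted p of 0.795, 0.579 and 1 by edgeR. Without DBA/2J animal 1 the moderate value was -0.65 (p = 0.12), and without Gpnmb+ animal 2 it was -0.80 (p = 0.0525). The mild value gave a p of 0.19 without DBA/2J animal 4, 0.0754 without animal 5, and 0.0852, 0.0784 and 0.0525 without Gpnmb+ animal 2, 3 or 4. The 3 grades share the same Gpnmb+ animals.

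Tgfb1 was low in most moderate retinas, at 1.77, 4.21, 5.00 and 16.8 CPM, against 10.5, 24.02 and 28.2 CPM in mild, 8.12, 25.6 and 45.5 CPM in severe and 0 to 43.3 CPM (median 18.9) in Gpnmb+ retinas. Its moderate log2 fold change was -1.92 ± 0.98 (unadjusted p = 0.0632, adjusted p = 0.601 by edgeR). Smad4 ran from 0 to 14.6 CPM in mild, 10.6 to 35.1 CPM in moderate and 16.0 to 95.9 CPM in severe retinas, and Smad3 from 11.1 to 166, 11.8 to 132 and 9.73 to 53.0 CPM over the same grades. The slopes over the 3 grades were 1.09 ± 0.73 log2 per step for Smad4 (p = 0.164), 0.82 ± 0.55 for Smad2 (p = 0.162) and -0.91 ± 0.51 for Smad3 (p = 0.103), each by edgeR over 7 sums of 5 animals. Leaving out animal 5 gave slopes of 2.15 for Smad4, 0.47 for Smad2 and -0.37 for Smad3, and leaving out animal 4 gave 0.68, 1.49 and -1.20 (p = 0.0465 for Smad3). For Smad3 the slope was -0.53 without animal 1 and -1.42 without animal 3. Slopes of the other 6 members lay between -0.15 and 0.32.

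edgeR called 0 members and 0.0% of 15965 genes for mild, 0.0% for moderate and 0.0% for severe retinas against Gpnmb+, and 0.0% of 13394 genes for the trend. At an unadjusted p under 0.05 there were 865, 1353, 682 and 247 genes, and DESeq2 called 511, 249, 224 and 22 genes and 0 members. Skil was the 1 member lower in mild retinas at an unadjusted p under 0.05, where 2.75% of all genes were. Tgfbr1 and Skil were the 2 lower in moderate retinas, where 3.71% were.

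**Figure D4:**
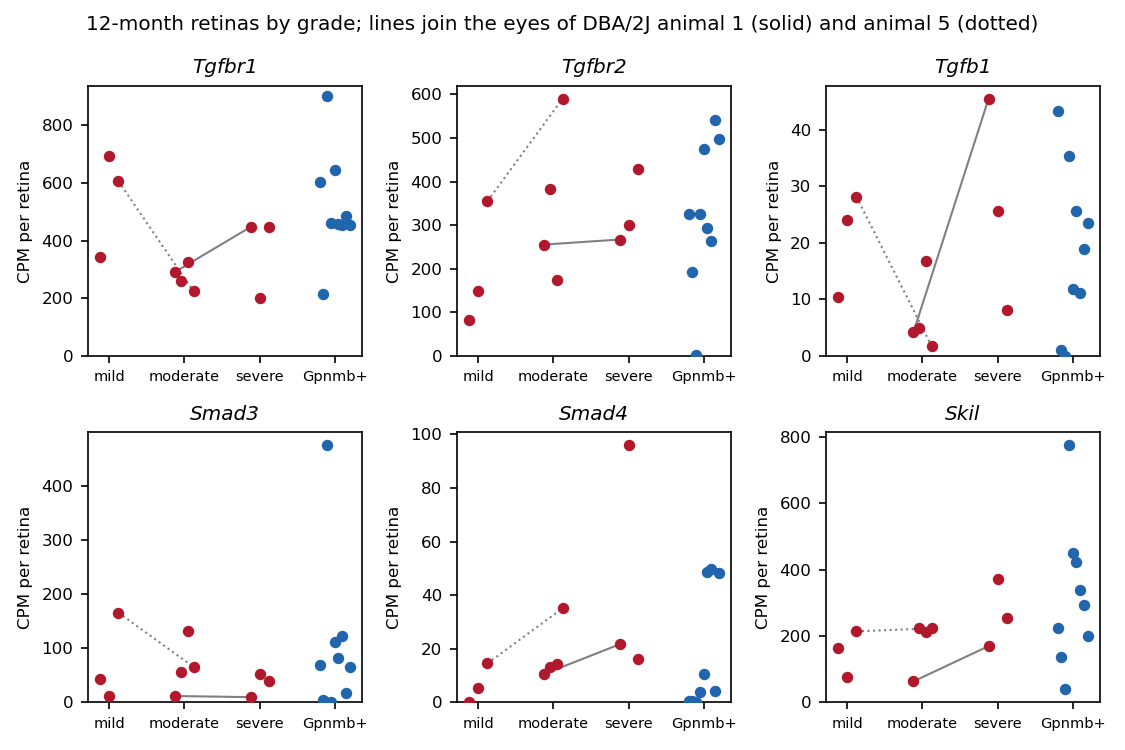
CPM per retina of 6 of the genes in mild, moderate and severe 12-month DBA/2J retinas and in Gpnmb+ retinas of the same age; lines join the eyes of DBA/2J animal 1 (solid) and animal 5 (dotted), whose eyes differed in grade. The 4 moderate retinas (3 animals) had 224 to 327 CPM of Tgfbr1, below the 3 mild retinas (2 animals). Both Tgfbr1 lines have their low end in the moderate eye.

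The rest of the pathway was read from 10 gene lists. Of 5 receptors and co-receptors, 4 were tested, and all 4 had a negative log2 fold change at 12 against 6 months, as did 49.4% of all genes. The median was -0.47, against 0.0097 over all genes, with Tgfbr1 the only one at an unadjusted p under 0.05. Against Gpnmb+, 3 of the 4 were negative, as were 47.6% of all genes. The median there was -0.24, against 0.0541 over all genes, and 0 had an unadjusted p under 0.05. Eng, a co-receptor, was at 154 ± 59.3 CPM in 12-month and 239 ± 60.7 CPM in 6-month DBA/2J (log2 fold change -0.63 ± 0.30, p = 0.0517). Of the 14 inhibitors, 12 had negative fold changes at 12 against 6 months (median -0.47), where 49.4% of all genes did. Against Gpnmb+ 6 did (median 0.05), where 47.6% of all genes did. Skil was the 1 inhibitor at an unadjusted p under 0.05 in each comparison. Pmepa1, a Smad-binding membrane protein that the pathway induces, was at 108 ± 25.9 CPM in 12-month DBA/2J, against 161 ± 57.8 CPM in Gpnmb+ (log2 fold change -0.58 ± 0.28, p = 0.0568) and 155 ± 25.3 CPM in 6-month DBA/2J (-0.53 ± 0.28, p = 0.0796).

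Other TGF-beta ligands were near absent: of 9 ligand and latency genes 3 were tested, Tgfb2 had reads in 2 of 24 retinas and Tgfb3 in 1. Nrros, which tethers latent TGF-beta on microglia, was at 231 ± 62.3 CPM in 12-month DBA/2J, against 298 ± 93.8 CPM in Gpnmb+ (log2 fold change -0.37 ± 0.26, p = 0.173). Among activators, 7 of 10 were tested and 0 had an unadjusted p under 0.05 against Gpnmb+ or against 6 months; Itgb5, an integrin subunit, was at 337 ± 85.5 CPM in 12-month and 431 ± 15.03 CPM in 6-month DBA/2J (-0.36 ± 0.23, p = 0.14). Smad5, which serves BMP receptors, was at 34.6 ± 19.1 CPM in 12-month DBA/2J and 20.2 ± 2.78 CPM in Gpnmb+ (0.78 ± 0.56, p = 0.181). In the lists of Smad partners (10 of 12 tested), the TAK1 branch (5 of 5) and BMP and activin receptors (6 of 8), 0 genes had an unadjusted p under 0.05 in either comparison.

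Genes downstream of the pathway had fold changes of both signs. Of 27 genes that depend on TGF-beta in microglia, 5 had an unadjusted p under 0.05 against Gpnmb+, 3 of them higher, where 2.75% of all genes were, and 2 lower, where 2.45% were (median log2 fold change -0.03, against 0.0541 over all genes). At 12 against 6 months 2 were higher, where 2.1% of all genes were, and 7 lower, where 1.55% were (median -0.25). In mild retinas 3 were higher, where 2.67% of all genes were, and 2 lower, where 2.75% were (median 0.14, against -0.11 over all genes). In moderate retinas 2 were higher, where 4.76% of all genes were, and 7 lower, where 3.71% were (median -0.43, against -0.02 over all genes). In severe retinas 4 were higher, where 3.07% of all genes were, and 1 lower, where 1.2% were (median 0.30, against -0.06 over all genes). Tgfbr1 itself belongs to this list and is 1 of the 7 lower at 12 against 6 months and in moderate retinas. C1qa, a complement subunit, was at 4326 ± 554 CPM in 12-month DBA/2J, against 2770 ± 414 CPM in Gpnmb+ (log2 fold change 0.64 ± 0.13, adjusted p = 0.313 by edgeR), with all 5 12-month DBA/2J animals above every Gpnmb+ animal, as for 0.832% of all genes. Olfml3 was at 3553 ± 738 CPM, against 2108 ± 304 CPM (0.75 ± 0.16, adjusted p = 0.313), with 4 of 5 above every Gpnmb+ animal. C1qa and Olfml3 are among the 12 microglia markers, whose sum was lower in Gpnmb+ animals 1 and 2 than in the other controls. The part of that in these differences was not tested. Rhob, a small GTPase gene, was at 88.7 ± 17.7 CPM, against 290 ± 210 CPM (-1.71 ± 0.39, adjusted p = 0.325), and Jun, an early-response transcription factor, at 2237 ± 499 CPM, against 5385 ± 2310 CPM (-1.27 ± 0.32, adjusted p = 0.433). Of the 5 12-month DBA/2J animals, 4 for Rhob and 3 for Jun were below every Gpnmb+ animal.
Of 17 TGF-beta and BMP responsive genes, 13 were tested. Atf3 and Junb were lower at an unadjusted p under 0.05 against Gpnmb+, where 2.45% of all genes were, and 0 were higher, where 2.75% were. Junb was at 2289 ± 403 CPM, against 3629 ± 1038 CPM (-0.67 ± 0.21, adjusted p = 0.567), and Atf3 at 80.7 ± 50.8 CPM, against 486 ± 432 CPM (-2.59 ± 0.78, adjusted p = 0.567). Of the 5 12-month DBA/2J animals, 4 for Junb but only 1 for Atf3 were below every Gpnmb+ animal. At 12 against 6 months Atf3 alone was lower, where 1.55% of all genes were, and 0 were higher, where 2.1% were. By grade, 16 were tested. In mild, moderate and severe retinas 1, 2 and 1 were higher, where 2.67%, 4.76% and 3.07% of all genes were. Lower were 2, 4 and 0, where 2.75%, 3.71% and 1.2% were. Neither group of genes is a direct readout of pathway activity, since most members answer to other signals as well.

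The eyes of 1 animal differed widely. Over the 9 animals with both eyes measured, the median absolute log2 ratio of the right to the left retina (CPM per library total) was 0.97 for Tgfbr1, 0.73 for Tgfbr2, 1.57 for Tgfb1, 1.58 for Smad2, 1.32 for Smad3, 2.09 for Smad4, 0.99 for Smad7, 0.68 for Ski and 0.55 for Skil. A ratio of 2 single libraries varies more than a difference between means of 5 animals, so these values describe the spread of single retinas and include 2 animals whose eyes differed in grade. In 12-month DBA/2J animal 1, Smad2 was at 10.4 CPM in the moderate and 81.7 CPM in the severe eye, and Ski at 43.1 and 224 CPM. The 6-month group had 1 eye per animal, so its differences between animals include this spread undiluted.

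Across the 15 animals most pairs of members had a low correlation: of 36 pairs, 23 had a Pearson r of log2 CPM between -0.3 and 0.3. With 15 animals and a wide spread between eyes, a low r does not show that members varied independently. The points share library depth and quality, and 1 animal set the strongest pairs. Smad2 and Ski had r = 0.81, Smad7 and Ski 0.78 and Smad2 and Smad7 0.63, but without Gpnmb+ animal 2 (n = 14) these were 0.04, 0.27 and -0.30. Smad3 and Skil had r = 0.60, and 0.63 without that animal, the 1 pair above 0.5 there; with each group's mean removed it was 0.47 over all 15 animals. For each member the highest correlations over 15 animals were picked from 5336 genes averaging 4 or more on the log2 CPM scale. How high such picked values run by chance was not tested. The patterns most like Tgfbr1 were those of Mcur1 (r = 0.79), Rb1cc1 (0.78) and Inppl1 (0.77), with r of 0.53, 0.70 and 0.42 once group means were removed. Those most like Skil were Jmjd1c (0.89), Akna (0.87) and Frmd4b (0.85). For Tgfbr2 they were Prkcd (0.89), Eef2 (0.86) and Myc (0.84), for Tgfb1 Rnmt (0.81), Usp42 (0.74) and Tmem140 (0.71), and for Smad3 Swap70 (0.83), Braf (0.82) and Nfe2l1 (0.81). Smad4 was closest to Tcirg1 (0.88), Abca3 (0.84) and Hsd3b7 (0.83). The closest genes of Smad2 (Puf60, Ncf4 and Tmem100, r = 0.94 to 0.95), Smad7 (Kdm5a, Pik3ca and AI467606, 0.91 to 0.94) and Ski (1810026B05Rik, Slco4a1 and Ccdc85a, 0.95) were found over all 15 animals; without Gpnmb+ animal 2 their r was 0.66 to 0.70, 0.82 to 0.83 and 0.76 to 0.83.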

How the data were processed

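Per the file headers, each retina has 1 table; expected counts (estimated numbers of reads, not whole) and TPM per gene were read from these tables as deposited. Named in the submitters' processing notes are mm10, Salmon 1.4.0, R 4.0.3 and DESeq2 1.30.1; for the role of each, the aligner and the annotation: not given in the sources used here. FPKM values, and 24 per-sample columns of a series table whose names match no label, were not used. Expected counts were rounded and summed over the eyes of an animal (or its eyes of 1 grade, giving 17 sums in which animals 1 and 5 enter with 2 each as independent). Tests across genes used edgeR 4.0.16 under R 4.3.3 (quasi-likelihood, two-sided, TMM, filterByExpr with minimum count 10 and total 15, Benjamini-Hochberg over all genes tested, threshold 0.05); the 3 groups shared 1 fit. The grade trend scored mild, moderate and severe as 0, 1 and 2. DESeq2 1.42.0 and limma 3.58.1 were alternatives. CPM per animal use TMM-scaled totals, CPM per retina the library total. Correlations used log2 CPM with a prior count of 2. A count of 0 allows up to 3 counts, for counting error only. Coordinates are those of GENCODE vM21 (GRCm38, the build mm10 also names), and 47224 of 47729 IDs matched a symbol.

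The 9 genes and all lists were chosen with earlier results of these data known. From each list, up to 4 genes with the smallest p against Gpnmb+ and up to 2 against 6 months could be named, at a mean log2 CPM of at least 4; the text gives some of these. The animals are separate, while their husbandry and library batches are not given. Counts of retinas within a group (91 pairs) gave a chi-square of 81.8 or more per degree of freedom, so none was counted as a duplicate. The edgeR steps were tested on simulated data.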

Additional observations from a re-analysis of the deposited data

Results flagged for a closer look

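Of 27 sets of 5 animals (9 genes in 3 groups), 2 held an animal far from the others, where chance flags about 1 in 20. Tgfb1 was at 33.3 CPM in 12-month DBA/2J animal 1, against 9.95 to 14.4 CPM in the other 4, and its severe eye had 45.5 CPM and its moderate eye 4.21 CPM. Smad2 was at 4.00 CPM (20 counts) in Gpnmb+ animal 2, against 28.8 to 35.8 CPM in the other 4; this is the animal with the fewest detected genes.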

How the results depend on the processing

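Apart from the exact tests named last, 1080 member fold changes were recomputed. Of these, 1044 moved by less than their standard error, 35 moved by more, 0 called values reversed and 1 gained a call: Tgfbr1 at 12 against 6 months under DESeq2, which made that count of called members 1. Signs changed 70 times, in no case for a called value. Against Gpnmb+, 1 member was lower at an unadjusted p under 0.05; there were 2 under DESeq2 and under RLE scaling, 0 with each retina as a replicate, 0 with retinas and a random animal effect, 0 with log2(TPM + 1) by limma, and 1 to 2 when 1 animal was left out. At 12 against 6 months there were 2. There were 0 with each retina as a replicate, 1 with a random animal effect and 1 with the retina of larger total of each animal. Leaving out 1 animal gave 1 to 2 (1 without 12-month DBA/2J animal 1 or 4 or 6-month DBA/2J animal 1 or 4), except for 12-month DBA/2J animal 5. Without that animal Tgfbr1, Skil and Smad3 were all lower at an unadjusted p under 0.05 by edgeR (0.0375 for Smad3). The cause was not tested. Skil against Gpnmb+ had a log2 fold change of -0.97 to -0.40 and an unadjusted p under 0.05 in 19 of 23 alternatives; Tgfbr1 at 12 against 6 months had -0.77 to -0.48, in 22 of 23. Animal numbers did not pair the animals (correlations -0.046 to 0.088), and with the number as a replicate block the counts of lower members were 1 and 2. Without a filter on low counts, edgeR called 2 genes at 12 against 6 months and 31, 33 and 10 for the 3 grades and 6 for the trend, and a random animal effect called 8, 5 and 40 genes in the comparisons of groups; 0 members were among them. Counts of 0 limited Smad4 in 2 retinas and Tgfb1, Smad3 and Ski in 1 retina each. Exact tests and similar patterns without Gpnmb+ animal 2 were chosen after seeing the data.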
